A study of Mus musculus with 9 samples.

Results

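The genes described here build the contacts between neighbouring cells: the classical cadherins Cdh1, Cdh2, Cdh3 and Cdh11, the claudins Cldn1, Cldn10 and Cldn15, and the tight junction genes Tjp1, Ocln and F11r. They are 10 of the 30869 gene symbols on the array and were taken by symbol, with every probe of each gene, 22 probes in all. Transcripts were measured in 9 samples of activated hepatic stellate cells (aHSCs), the scar-forming cells of the liver, on Illumina MouseWG-6 v2.0 BeadChips with 1 array per sample. All samples came from male C57/Bl6 WT1GFP/+ mice, in which green fluorescent protein (GFP) reports transcription of the WT1 locus and 1 WT1 allele carries the reporter, so every group shares that genotype. Cells were enriched by density centrifugation and then sorted on GFP alone, a gate that takes any GFP-positive cell of the buoyant fraction.

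The WT1-high group (GFP high; replicates 1, 8 and 29) and the WT1-intermediate group (GFP low; replicates 1, 8 and 30) were sorted straight from livers injured repeatedly with carbon tetrachloride. The WT1-negative group (GFP negative; replicates 3, 11 and 14) was sorted after quiescent cells had been activated on plastic for 7 days, with no carbon tetrachloride named in the labels. Liver or culture origin therefore coincided with WT1 status, and the 2 cannot be told apart in any comparison with WT1-negative cells. The study states 3 animals for the 6 in vivo arrays, and a pair of arrays, 1 of each GFP gate, was therefore taken as 1 animal (1, 8, and 29 with 30). Per the study's methods, replicates were individual animals in vivo and independent cell isolations in vitro.

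Cadherins are transmembrane proteins that bind the same cadherin on the next cell and tie it, through catenins, to the actin cytoskeleton. Cdh1 (E-cadherin) and Cdh3 (P-cadherin) are known from epithelia, Cdh2 (N-cadherin) and Cdh11 (OB-cadherin) from mesenchymal cells. Claudins form the strands of tight junctions and set which ions pass between cells. Ocln (occludin) and F11r (junctional adhesion molecule A) are further membrane proteins of the tight junction, and Tjp1 (ZO-1) is the scaffold under the membrane that binds claudins and occludin.

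Cldn10 is made in 2 main forms that differ in their first exon, known as claudin-10a, a channel for anions, and claudin-10b, a channel for cations. The array held 4 Cldn10 probes on chromosome 14, and 3 of them are shown, 1 in the first exon of each form and 1 in their shared part. The deposited annotation assigned the first to transcript variant 2 (claudin-10b), and the other two to transcript variant 1 (claudin-10a). By the known coding sequences, ILMN_2723576 lies in the first exon of claudin-10b, ILMN_2610656 in the first exon of claudin-10a, and ILMN_1214954 at the end of the coding part that both forms carry.
Cldn10 ILMN_2723576: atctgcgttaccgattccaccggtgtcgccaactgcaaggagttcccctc
Cldn10 ILMN_2610656: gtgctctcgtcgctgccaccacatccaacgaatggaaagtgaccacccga
Cldn10 ILMN_1214954: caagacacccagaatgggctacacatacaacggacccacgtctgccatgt

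The RefSeq promoters read here were those of 6 of the 10 genes, with 8 start sites, and included no cadherin. Both starts of Cldn10 and that of Cldn15, the claudins with the largest differences below, are printed as the 250 bases before the start, 5′ to 3′, from build GRCm38.p6. Capitals mark the GC box GGGCGG or its reverse complement CCGCCC, a site for Sp1-like factors, and would also mark the E-box CACCTG or CAGGTG, to which Snail and Zeb factors bind. The table does not pair starts with transcript variants.
Cldn10 first start, chr14:118787621-118787870, plus strand: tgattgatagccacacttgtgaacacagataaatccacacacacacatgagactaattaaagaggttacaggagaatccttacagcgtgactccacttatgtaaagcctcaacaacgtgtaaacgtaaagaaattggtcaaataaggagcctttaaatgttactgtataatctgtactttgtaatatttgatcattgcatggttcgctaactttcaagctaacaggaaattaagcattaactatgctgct
Cldn10 second start, chr14:118854700-118854949, plus strand: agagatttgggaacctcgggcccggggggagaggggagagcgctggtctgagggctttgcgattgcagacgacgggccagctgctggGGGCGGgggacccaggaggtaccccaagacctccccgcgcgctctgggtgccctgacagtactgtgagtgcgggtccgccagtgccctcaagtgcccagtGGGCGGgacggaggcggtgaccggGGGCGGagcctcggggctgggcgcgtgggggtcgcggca
Cldn15, chr5:136967619-136967868, plus strand: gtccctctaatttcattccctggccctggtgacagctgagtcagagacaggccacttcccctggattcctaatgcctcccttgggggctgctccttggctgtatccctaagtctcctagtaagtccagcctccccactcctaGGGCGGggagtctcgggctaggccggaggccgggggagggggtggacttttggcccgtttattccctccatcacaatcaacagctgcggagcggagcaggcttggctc

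The starts of Cldn10 differed in base composition, with 36.0% G and C before the first and 72.4% before the second, where the median of all 32851 promoters was 52.4%. The first held neither motif and the second held 3 GC boxes. A GC box occurred in 7 of the 8 member promoters and in 32.7% of all promoters. The E-box occurred in 2, those of F11r and of 1 Ocln start, and in 17.2% of all. The windows of Cldn10 and Cldn15 did not hold the letters of the E-box.

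Mean signals of the arrays lay between 147 and 289, and 17253 to 19774 probes per array were detected, meaning that fewer than 5% of the negative control probes were brighter. Levels are given as log2 intensities after background correction and quantile normalisation, where about 4.2 was the floor. Of the 45281 probes, 20573 were detected on at least 3 arrays and tested, and 17 of the 22 member probes were among them. The other 5 (the only Ocln probe and 1 probe each of Cdh1, Cdh2, Cdh11 and Cldn10) were detected on no array. Of the 17, 7 were detected on no WT1-negative array, so they passed through the groups in which they were high. A probe is termed called where limma's adjusted p (Benjamini-Hochberg over all tested probes) was under 0.05, and a value after ± is the SE of a difference from that fit (3 arrays per group). Brightness cannot be compared between different probes, and in bulk samples fewer cells of a type cannot be told from less RNA per cell.

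The label of stellate cells was checked against marker genes. All 12 mesothelial markers on the array were detected on every WT1-high and WT1-intermediate array and 3 to 5 of them on WT1-negative arrays, with summed linear levels of 36142 to 40723, 21196 to 29185 and 419.9 to 518. Of 13 stellate cell markers 8 to 10 were detected per array, among them Dcn, Des and Cygb in all groups. Gfap, Lhx2 and Rgs5 were detected on no array and Lrat on 1 WT1-high array. The stellate cell markers summed to 14291 to 16173 in WT1-high, 15682 to 20357 in WT1-intermediate and 2679 to 4867 in WT1-negative cells. Dcn, the brightest of them on every array, weighed most in these sums. Of the 9 tested, 5 were higher and 2 lower than in WT1-negative cells, for either in vivo group (limma). Ngfr was lower for both groups (-0.49 for WT1-high, -0.69 for WT1-intermediate). The other lower gene was Pdgfrb for the WT1-high group (-1.14) and Des for the WT1-intermediate group (-1.34). Macrophage markers summed to 2721 to 5520.4 in WT1-high, 11475 to 17424 in WT1-intermediate and 40013 to 44681 in WT1-negative cells, with 9 or 10 of 10 detected in each. Of 8 skeletal muscle markers 7 were detected on each WT1-negative array (summed level 6164 to 9439) and 1 or 2 on each in vivo array (159.9 to 185). Hepatocyte markers summed to 557 to 2488, 683 to 1956 and 232 to 323 in the same order of groups, with Alb detected on no array, and of 9 T and NK cell markers 7 or 8 were detected on in vivo and 1 or 2 on WT1-negative arrays. Wt1 itself was not analysed here. The part of these marker levels in the results that follow was not tested.

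The WT1-positive subpopulations from fibrotic liver carried far more Cdh3, Cldn10, Cldn15, Tjp1 and F11r transcript than the WT1-negative cells from culture. In WT1-high against WT1-negative cells, 13 of the 17 kept member probes were higher, 1 was lower and 3 were not called (limma), where 26.5% of all tested probes were called higher and 33.1% lower. In WT1-intermediate against WT1-negative cells the counts were again 13, 1 and 3, against 24.4% and 33.6% of all probes. The median difference of the 17 member probes was 3.04 and 2.78 on the log2 scale, whereas the median over all tested probes was -0.10 and -0.13. Both comparisons share the WT1-negative arrays. Of the 17 probes 7 were tested only through their in vivo signal, and several probes read the same gene. Probe counts and medians are therefore not those of independent members. By gene, 6 of 9 had a probe called higher and 1 a probe called lower in WT1-high than in WT1-negative cells (limma). For WT1-intermediate against WT1-negative cells these were 7 and 1.

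**Figure D1:**
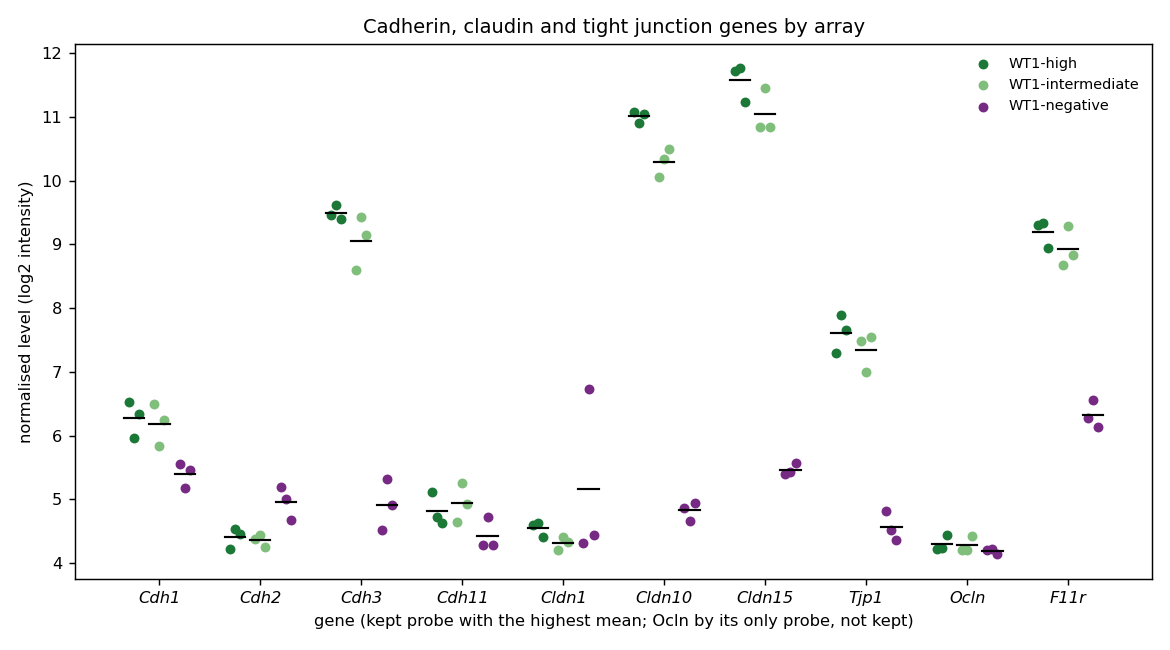
Normalised level (log2 intensity) of each gene on each of the 9 arrays, for the kept probe with the highest mean; Ocln is shown by its only probe, which was not kept. Points are arrays, black bars are group means (n = 3); for Cdh3, Cldn10, Cldn15, Tjp1 and F11r every in vivo array lay above every WT1-negative array of the same gene, for Tjp1 at 7.00 to 7.89 against 4.37 to 4.82.

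Cdh3, which encodes P-cadherin, differed most from WT1-negative cells among the 4 classical cadherins. Its brightest probe (ILMN_3156246, chromosome 8) read 9.47, 9.61 and 9.39 on WT1-high 1, 8 and 29, 8.60, 9.43 and 9.15 on WT1-intermediate 1, 8 and 30, and 4.52, 5.32 and 4.91 on WT1-negative 3, 11 and 14. The in vivo groups overlapped each other and both lay above every WT1-negative array. The level was 23.8-fold higher in WT1-high (log2 difference 4.57 ± 0.24, SE; adjusted p 5.9e-08, limma) and 17.6-fold higher in WT1-intermediate than in cultured WT1-negative cells (4.14 ± 0.24; adjusted p 1.6e-07, limma). Between WT1-high and WT1-intermediate cells it differed by 0.43 ± 0.24 and was not called (adjusted p 0.40, limma).

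The other Cdh3 probes gave the same direction with different sizes. ILMN_1222853 and ILMN_2444594 were detected on every in vivo and on no WT1-negative array, and were at least 11.5-fold and at least 5.68-fold higher in WT1-high than in cultured WT1-negative cells. These are lower bounds, set against the dimmest signal detected on the WT1-negative arrays. ILMN_3077284, annotated to the same RefSeq transcript as the brightest probe, was detected on 2 WT1-high and 1 WT1-intermediate arrays, with levels between 4.43 and 4.84 in vivo. Detected on no WT1-negative array, it was called at least 1.04-fold higher in WT1-high cells (adjusted p 0.034, limma), but not with an offset of 50 (0.090), median scaling (0.056), or without WT1-high 8 or 29 or any WT1-negative array (0.051 to 0.11).

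Cdh1, which encodes E-cadherin and lies on chromosome 8 as Cdh3 and Cdh11 do, changed less. Its probe ILMN_2628629 read 6.52, 5.97 and 6.34 on WT1-high 1, 8 and 29, 6.49, 5.84 and 6.24 on WT1-intermediate 1, 8 and 30, and 5.55, 5.18 and 5.45 on WT1-negative 3, 11 and 14. WT1-negative arrays were below all others. The difference was 0.88 ± 0.21 for WT1-high (1.84-fold; adjusted p 0.0034, limma) and 0.79 ± 0.21 for WT1-intermediate cells (1.73-fold; adjusted p 0.0066, limma), the latter not called under median scaling (0.16). The in vivo groups differed by 0.091 ± 0.21 (adjusted p 0.87, limma). In both in vivo groups the order of the arrays was the same, with the array of animal 8 lowest.

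Cdh2, which encodes N-cadherin and has no chromosome in the deposited annotation, was the 1 member called lower in vivo, at levels near background. Its probe ILMN_1216390 read 4.22, 4.54 and 4.46 on WT1-high 1, 8 and 29, 4.39, 4.44 and 4.25 on WT1-intermediate 1, 8 and 30, and 5.20, 5.01 and 4.67 on WT1-negative 3, 11 and 14. It was detected on all 3 WT1-negative arrays, on 1 WT1-high array and on no WT1-intermediate array. WT1-high minus WT1-negative was -0.55 ± 0.17 (adjusted p 0.014, limma). WT1-negative cells held at least 1.32-fold more than WT1-intermediate cells (fitted difference -0.60 ± 0.17, adjusted p 0.0097, limma). The call for WT1-high cells was lost without WT1-high 1 (adjusted p 0.059) or WT1-negative 3 (0.065), and the second Cdh2 probe was detected on no array.

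Cdh11 was near background in all groups. Its probe ILMN_1240529 read 5.12, 4.72 and 4.63 on WT1-high 1, 8 and 29, 4.65, 5.26 and 4.93 on WT1-intermediate 1, 8 and 30, and 4.28, 4.73 and 4.28 on WT1-negative 3, 11 and 14, so that all groups overlapped. The difference between WT1-intermediate and WT1-negative cells was 0.52 ± 0.21 with an adjusted p of 0.049 (limma). It was not called under 7 of the other settings, among them no filter (adjusted p 0.11), the random replicate block (0.063) and the mean of both Cdh11 probes (0.14), nor without WT1-high 8 or 29, WT1-intermediate 8 or 30 or WT1-negative 3 or 14 (0.051 to 0.18). WT1-high cells differed from WT1-negative cells by 0.39 ± 0.21 (adjusted p 0.12, limma), which was called with cyclic loess (0.032) and array weights (0.013). The probe ILMN_2737073 shares 46 of its bases with ILMN_1240529, so the 2 are not independent readings.

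**Figure D2:**
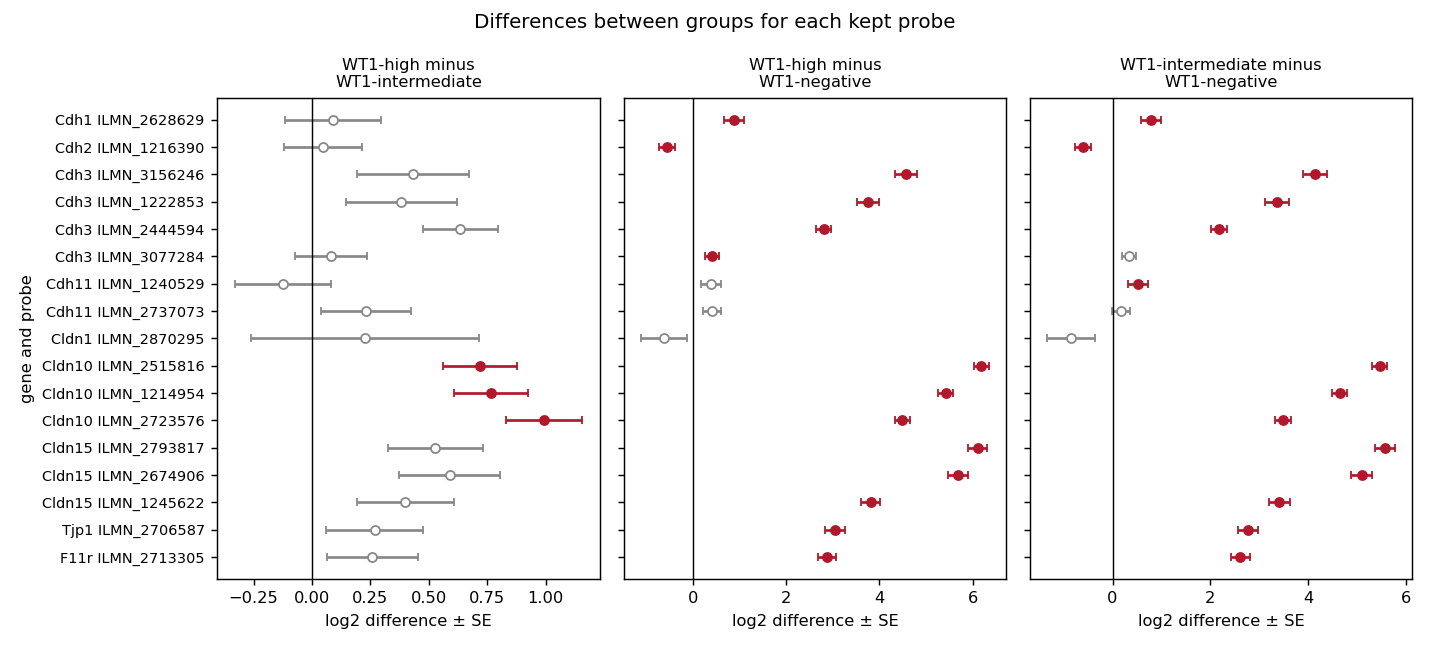
Log2 difference with its SE for each of the 17 kept probes in the 3 comparisons (x axes differ in range); filled red points were called by limma at an adjusted p under 0.05, open grey points were not. The 3 Cldn10 probes are the called ones between WT1-high and WT1-intermediate cells, with differences from 0.72 to 1.00.

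Cldn10 gave the largest difference of all members between WT1-high and WT1-negative cells and was the only member called between the in vivo groups. Its brightest probe (ILMN_2515816) read 11.08, 10.90 and 11.05 on WT1-high 1, 8 and 29, 10.05, 10.34 and 10.49 on WT1-intermediate 1, 8 and 30, and 4.87, 4.67 and 4.94 on WT1-negative 3, 11 and 14. The 3 groups did not overlap, and their order was WT1-high, WT1-intermediate, WT1-negative. The level was 72.6-fold higher in WT1-high (6.18 ± 0.16, SE; adjusted p 5.9e-10, limma) and 44.1-fold higher in WT1-intermediate than in cultured WT1-negative cells (5.46 ± 0.16; adjusted p 1.2e-09, limma).

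The probe of the claudin-10b exon, ILMN_2723576, read 8.86, 8.70 and 8.98 on WT1-high 1, 8 and 29, 7.56, 7.97 and 8.02 on WT1-intermediate 1, 8 and 30, and 4.36, 4.26 and 4.46 on the WT1-negative arrays 3, 11 and 14, none of which detected it. WT1-high cells held at least 18.9-fold more, and WT1-intermediate cells were at least 9.48-fold above cultured WT1-negative ones (adjusted p 4.5e-09 and 3.3e-08, limma). The probe of the claudin-10a exon, ILMN_2610656, stayed between 4.16 and 4.35 on all 9 arrays and was detected on none. ILMN_1214954, which reads both forms although annotated to variant 1, lay at 8.90 or above on every in vivo array and between 4.44 and 4.58 on WT1-negative arrays, none of which detected it, so that WT1-high cells held at least 40.2-fold more. Of the first-exon probes, that of claudin-10b was bright in vivo and that of claudin-10a was at background; whether ILMN_2610656 would respond to its transcript was not tested.

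Between WT1-high and WT1-intermediate cells, 3 of the 17 kept member probes were called higher and 0 lower (limma), all 3 in Cldn10, where 0.904% of all tested probes were higher and 2.64% lower. At an unadjusted p under 0.05 there were 6 higher and 0 lower. Of all calls 25.5% were higher, against 95.5% with median scaling and 37.8% without background correction. The median difference of the members was 0.38, against 0.05 over all tested probes. The differences were 0.72 ± 0.16 for ILMN_2515816 (adjusted p 0.032), 0.77 ± 0.16 for ILMN_1214954 (0.025) and 1.00 ± 0.16 for ILMN_2723576 (0.0080; limma, SE). Within animals, ILMN_2723576 was higher in the WT1-high array by 1.30 in animal 1, by 0.72 in animal 8 and by 0.96 between WT1-high 29 and WT1-intermediate 30. For ILMN_2515816 these differences were 1.03, 0.57 and 0.56, so that all 3 animals ran the same way and animal 1 differed most.

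The number of member probes called rested on single arrays. Without WT1-high 1, 8 or 29 or without WT1-intermediate 1, 1 probe was left, ILMN_2723576 in each case. The adjusted p of ILMN_2515816 then lay between 0.075 and 0.11 and that of ILMN_1214954 between 0.056 and 0.084. ILMN_2515816 also lost its call without WT1-intermediate 8, WT1-negative 3 or WT1-negative 14 (adjusted p 0.055 to 0.057, limma). Without WT1-intermediate 8, Cdh3 ILMN_2444594 was called in its place (0.046). Nor was ILMN_2515816 called with no filter (0.054), the fixed replicate block by label (0.058), only the compared groups in the fit (0.086) or the in vivo arrays processed alone (0.073). With each animal as a fixed replicate block 5 probes were called, the 3 of Cldn10 with Cdh3 ILMN_2444594 (adjusted p 0.039) and Cldn15 ILMN_2674906 (0.043). With the random replicate block 4 were called, Cdh3 ILMN_2444594 among them (0.017).

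**Figure D3:**
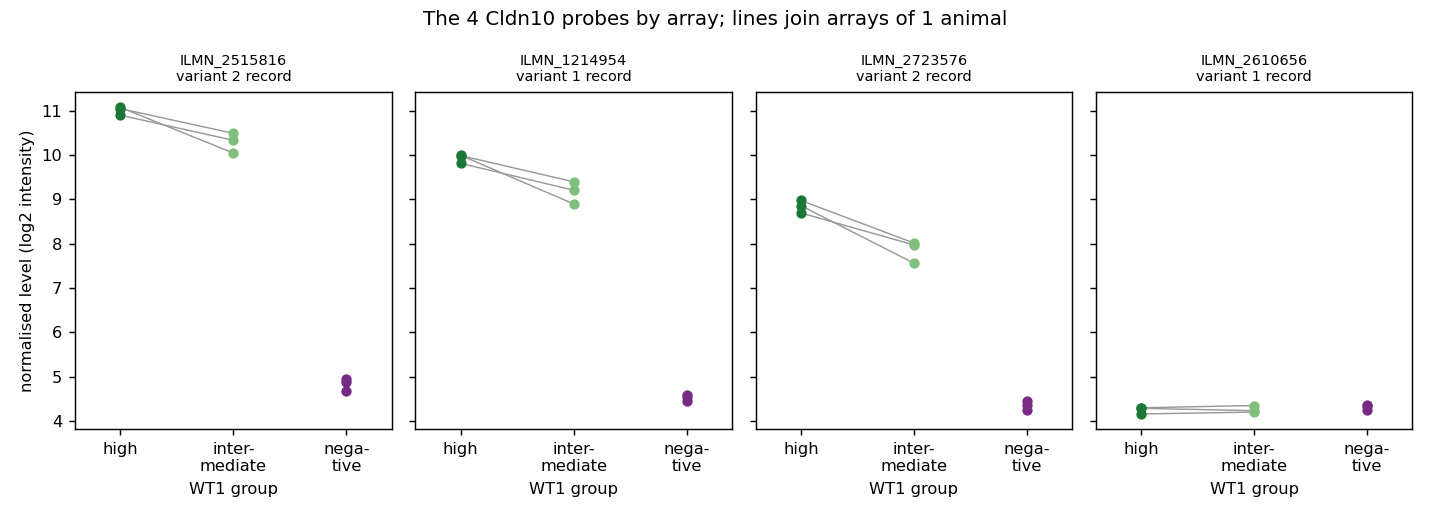
Normalised level (log2 intensity) of the 4 Cldn10 probes by WT1 group; points are arrays, grey lines join the WT1-high and WT1-intermediate arrays of 1 animal, and the titles give the RefSeq variant of the record that each probe is annotated to. In the first 3 panels each line falls from high to intermediate and WT1-negative arrays lie at 4.94 or below, and in the fourth all 9 arrays lie between 4.16 and 4.35.

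Cldn15, a claudin known for cation permeability in the intestine, gave the largest difference of all members between WT1-intermediate and WT1-negative cells. Its probe ILMN_2793817 (chromosome 5) read 11.72, 11.76 and 11.24 on WT1-high 1, 8 and 29, 10.84, 11.45 and 10.84 on WT1-intermediate 1, 8 and 30, and 5.40, 5.43 and 5.57 on WT1-negative 3, 11 and 14. The in vivo groups overlapped, and both stood far above the WT1-negative arrays. It was 68.8-fold higher in WT1-high (6.10 ± 0.20, SE; adjusted p 2.3e-09, limma) and 47.7-fold higher in WT1-intermediate than in cultured WT1-negative cells (5.58 ± 0.20; adjusted p 5.0e-09, limma). Of the other Cldn15 probes, ILMN_2674906 differed by 5.68 between WT1-high and WT1-negative cells, and ILMN_1245622, detected on no WT1-negative array, was at least 10.9-fold higher. Between the in vivo groups the 3 probes differed by 0.40 to 0.59 and were not called (adjusted p 0.18 to 0.36, limma). With each animal as a fixed replicate block ILMN_2674906 was called (0.59, adjusted p 0.043, limma). Median scaling called ILMN_2674906 (1.30, adjusted p 0.046, limma) and ILMN_2793817 (1.17, 0.044), with the median of all tested probes moved to 0.45. The WT1-high array was the brighter of each animal for all 3 probes.

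Cldn1, on chromosome 16, is a claudin of the barrier in skin, liver and other epithelia, and its WT1-negative level rested on 1 array. It read 4.60, 4.64 and 4.41 on WT1-high 1, 8 and 29, 4.21, 4.40 and 4.34 on WT1-intermediate 1, 8 and 30, and 4.32, 6.73 and 4.44 on WT1-negative 3, 11 and 14. WT1-negative 11 lay 2.29 above the higher of the other 2 arrays of its group, a gap that 16 of the 20573 tested probes (0.0778%) reached. The difference between WT1-high and WT1-negative cells was -0.62 ± 0.49 (adjusted p 0.29, limma), and it became 0.17 without WT1-negative 11 (adjusted p 0.39). WT1-high arrays all lay above WT1-intermediate arrays, but the difference of 0.23 ± 0.49 was not called (adjusted p 0.86, limma).

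The tested probes most like Cldn1 over the 9 arrays were those of Havcr1 (Pearson r 0.993), a receptor of injured kidney tubule cells, Hoxb7 (0.973), a homeobox factor, and Col4a3 (0.968), a basement membrane collagen of kidney and lung. Havcr1 read 9.35 on WT1-negative 11 and between 4.44 and 4.87 on the other arrays. Cldn1 also stood out on WT1-negative 11 alone, so these r values rest largely on that 1 array. Among the other cadherins, Cdh16, known from kidney tubules, read 8.39 on WT1-negative 11 and 4.23 to 4.44 elsewhere, and Cdh6 read 7.16 and 4.17 to 4.48. Cldn4, a claudin of tight epithelia, read 7.83 on WT1-negative 11 and 4.55 to 6.44 elsewhere. These 3 were named after their values were seen. Of 8 cholangiocyte markers 6 were detected on WT1-negative 11 and 4 and 3 on the other WT1-negative arrays, with a summed level of 6359 against 6865 and 6128. Epcam of that list, given under its older symbol Tacstd1, was detected on no array. Their part in the Cldn1 value was not tested.

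**Figure D4:**
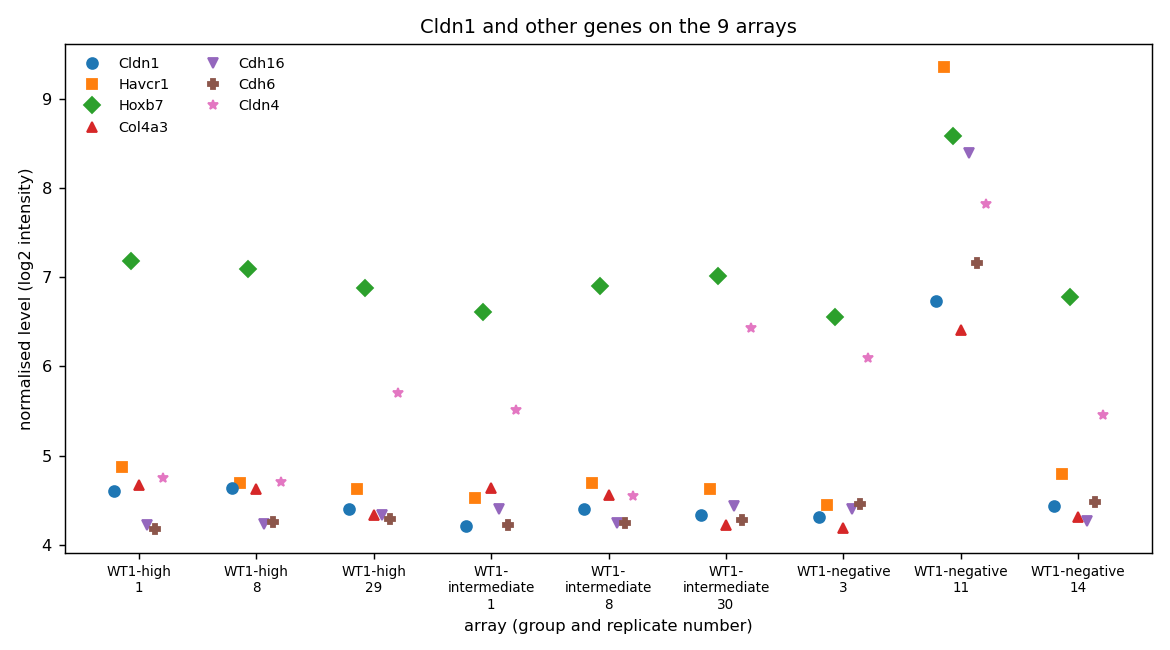
Normalised level (log2 intensity) of Cldn1, of the 3 genes most like it over the arrays (Havcr1, Hoxb7, Col4a3) and of Cdh16, Cdh6 and Cldn4, each by 1 probe, on the 9 arrays; 1 point per gene and array. Each of the 7 genes is at its highest on WT1-negative 11, Cldn1 at 6.73.

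Tjp1, the ZO-1 scaffold, on chromosome 7, read 7.30, 7.89 and 7.65 on WT1-high 1, 8 and 29, 7.49, 7.00 and 7.55 on WT1-intermediate 1, 8 and 30, and 4.82, 4.52 and 4.37 on WT1-negative 3, 11 and 14. The in vivo groups overlapped, and WT1-negative arrays were lower throughout, with the probe detected on 1 of them. It was 8.25-fold higher in WT1-high (3.04 ± 0.21, SE; adjusted p 4.3e-07, limma) and 6.85-fold higher in WT1-intermediate than in cultured WT1-negative cells (2.78 ± 0.21; adjusted p 1.1e-06, limma). Between the in vivo groups it differed by 0.27 ± 0.21 (adjusted p 0.56, limma).

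F11r, junctional adhesion molecule A, on chromosome 1, was detected on all 9 arrays. It read 9.30, 9.34 and 8.94 on WT1-high 1, 8 and 29, 8.68, 9.28 and 8.84 on WT1-intermediate 1, 8 and 30, and 6.27, 6.55 and 6.14 on WT1-negative 3, 11 and 14. WT1-negative arrays were again below all others. It was 7.31-fold higher in WT1-high (2.87 ± 0.20, SE; adjusted p 4.1e-07, limma) and 6.11-fold higher in WT1-intermediate cells (2.61 ± 0.20; adjusted p 1.1e-06, limma), with 0.26 ± 0.20 between them (adjusted p 0.54, limma). Ocln, on chromosome 13, stayed between 4.14 and 4.45 on all 9 arrays, where its only probe was detected on none.

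The genes most like each of the other members were, for Cdh3, Tmem98, Tmem176a and Il17rd, each with a Pearson r of 0.998 over 9 arrays. For Cldn10 they were Cav1, the coat protein of caveolae, Smpd3 and Dmkn (0.999 each), and for Cldn15 Epb4.1l4b, Lrrc1 and Muc16, a mesothelial mucin (0.999 each). For F11r they were Shroom3, Zfp185 and Ltbp4 (0.998 each), and for Tjp1 Eif4b, 1200009F10Rik and Atl2 (0.995 to 0.998). Cdh1 was most like LOC384104, Utp15 and 2310005N03Rik (0.967 to 0.973), Cdh2 most like Scamp5, Rfc5 and 4933403O12Rik (0.965 to 0.976) and Cdh11 most like Gbp6, Prpf40b and Fam168b (0.950 to 0.958). The arrays fall into 2 sets far apart, liver and culture, which alone gives high values over so few points.

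The other claudins did not move together. Of 18 on the array 8 were tested. In WT1-high against WT1-negative cells 2 were higher and 4 lower (limma), where 26.5% of all tested probes were higher and 33.1% lower. The median difference of the 8 claudins was -0.63. Cldn3, a widespread sealing claudin, read 8.54, 8.64 and 8.62 on WT1-high 1, 8 and 29, 6.97, 7.36 and 7.18 on WT1-intermediate 1, 8 and 30, and 4.73, 4.33 and 4.49 on WT1-negative 3, 11 and 14. Its groups did not overlap, and the in vivo groups differed by 1.43 ± 0.16 (adjusted p 8.5e-04, limma). Against WT1-negative cells Cldn3 was higher by 4.09 (WT1-high) and 2.66 (WT1-intermediate) (adjusted p 6.5e-09 and 1.9e-07, limma). Cldn5, the claudin of endothelium, gave -2.49 and -1.87 (adjusted p 2.2e-06 and 2.4e-05, limma), and Cldn2, a channel for cations and water, gave -2.10 and -1.30 (3.4e-04 and 0.0076). Cldn2 read 6.06, 7.60 and 6.10 on WT1-negative 3, 11 and 14, with WT1-negative 11 highest and all above every in vivo array. Of 10 endothelial markers 8 or 9 were detected on in vivo and all 10 on WT1-negative arrays. They summed to 1115 to 1499 in WT1-high, 1928 to 2240 in WT1-intermediate and 1258 to 1646 in WT1-negative cells. Clec4g, the brightest in vivo, weighed most there and was higher by 2.76 (WT1-high) and 3.45 (WT1-intermediate), whereas Emcn gave -2.95 and -2.43. By gene, 5 were lower and 2 higher in WT1-high than in WT1-negative cells (limma). For WT1-intermediate cells these were 5 and 3, against 33.6% and 24.4% of all tested probes. Kdr, lower there, was tested only through its WT1-negative signal. The part of these markers in the Cldn5 value was not tested.

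Of 19 other cadherins 4 were tested. In WT1-high against cultured WT1-negative cells 3 of these were lower and 0 higher (limma, also 0 higher at an unadjusted p under 0.05). Of all tested probes 33.1% were lower and 26.5% higher in that comparison. Cdh5, VE-cadherin of endothelium, gave differences from WT1-negative cells of -1.58 for WT1-high and -0.82 for WT1-intermediate (adjusted p 5.5e-05 and 0.0052, limma). Cdh15, M-cadherin of skeletal muscle and its satellite cells, was detected on every WT1-negative and on no in vivo array. It was thus tested only through its WT1-negative signal. WT1-negative cells held at least 1.94-fold more Cdh15 than WT1-high and at least 1.93-fold more than WT1-intermediate cells. Cdh13, T-cadherin, was detected on no WT1-high array and was at least 1.50-fold higher in WT1-negative cells (adjusted p 0.0040, limma); WT1-intermediate minus WT1-negative was -0.63 (adjusted p 0.015, limma). Skeletal muscle markers moved with Cdh15 in the levels given above, which was not tested further.

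Adherens junction partners, the catenins, their actin linkers and the nectins, link cadherins to actin or stand beside them in the membrane. Of 12 adherens junction partners 8 were tested, and all 8 were higher in WT1-high than in cultured WT1-negative cells and 4 in WT1-intermediate cells, with 0 lower in either (limma; also 0 lower at an unadjusted p under 0.05) and medians of 0.83 and 0.75. Among the 8, Jup (plakoglobin) and the nectin Pvrl1 were detected on no WT1-negative array and were tested only because of their in vivo signal. Of all tested probes 26.5% were higher and 33.1% lower in WT1-high cells, and 24.4% and 33.6% in WT1-intermediate cells. Pvrl2, a nectin, was higher by 1.86 (adjusted p 2.2e-05) in WT1-high cells, Vcl, which encodes vinculin, by 1.73 (1.5e-05), and Mllt4, the nectin-binding afadin, by 1.49 (2.3e-05; limma). Ctnnb1, β-catenin, was higher by 1.04 in WT1-intermediate cells (adjusted p 9.6e-05, limma). Between the in vivo groups 0 of the 8 were called by limma, and 1 had an unadjusted p under 0.05.

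Of 24 tight junction partners 20 were tested, and 12 were higher and 0 lower in WT1-high than in cultured WT1-negative cells (limma; also 0 lower at an unadjusted p under 0.05), with a median of 1.08, where 26.5% of all tested probes were higher and 33.1% lower. Of the 20, Marveld3, Jam3, Inadl and Prkcz were detected on no WT1-negative array, so that these 4 entered the test through their in vivo signal. The largest were Cxadr, an adhesion protein of the junctional immunoglobulin family, at 3.93 and Cgn, the cytoplasmic adaptor cingulin, at 3.80 (adjusted p 4.2e-08 and 2.3e-08, limma). Prkcz, an atypical protein kinase C of the polarity complex, was detected on no WT1-negative array and was at least 8.39-fold higher (adjusted p 1.9e-07, limma). In WT1-intermediate cells 11 were higher and 1, Tjp3 (ZO-3), was lower (limma), where 24.4% of all tested probes were higher and 33.6% lower. At an unadjusted p under 0.05 (limma), 3 were lower in that comparison. Tjp3 was detected on no WT1-intermediate array, and WT1-negative cells held at least 1.10-fold more (adjusted p 0.039, limma). Between the in vivo groups Marveld3, a membrane protein related to occludin, was the only one called, at 0.74 ± 0.14 (adjusted p 0.016, limma).

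Desmosomes, which tie keratin filaments to the membrane, were also represented. Of 14 desmosome genes 6 were tested, and 5 were higher and 1 lower in both comparisons with WT1-negative cells (medians 3.46 and 2.84, limma). Among the 6, Ppl and Evpl were tested only through their in vivo signal, and both count in these numbers and medians. Over all tested probes 26.5% were higher and 33.1% lower in WT1-high cells, and 24.4% and 33.6% in WT1-intermediate cells. Dsg2, the desmosomal cadherin desmoglein 2, was higher by 5.20 in WT1-high cells (adjusted p 4.1e-08, limma). Ppl, periplakin, and Evpl, envoplakin, which are known as partners, were detected on no WT1-negative array and were at least 25.5-fold and at least 13.8-fold higher in WT1-high cells. Pkp4, a plakophilin relative, was the lower one (-1.56, adjusted p 2.0e-05, limma). Evpl was also higher in WT1-high than in the WT1-intermediate group, by 0.88 ± 0.15 (adjusted p 0.0087, limma). Dsp, which encodes desmoplakin, was detected on 2 WT1-high arrays and not tested.

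**Figure D5:**
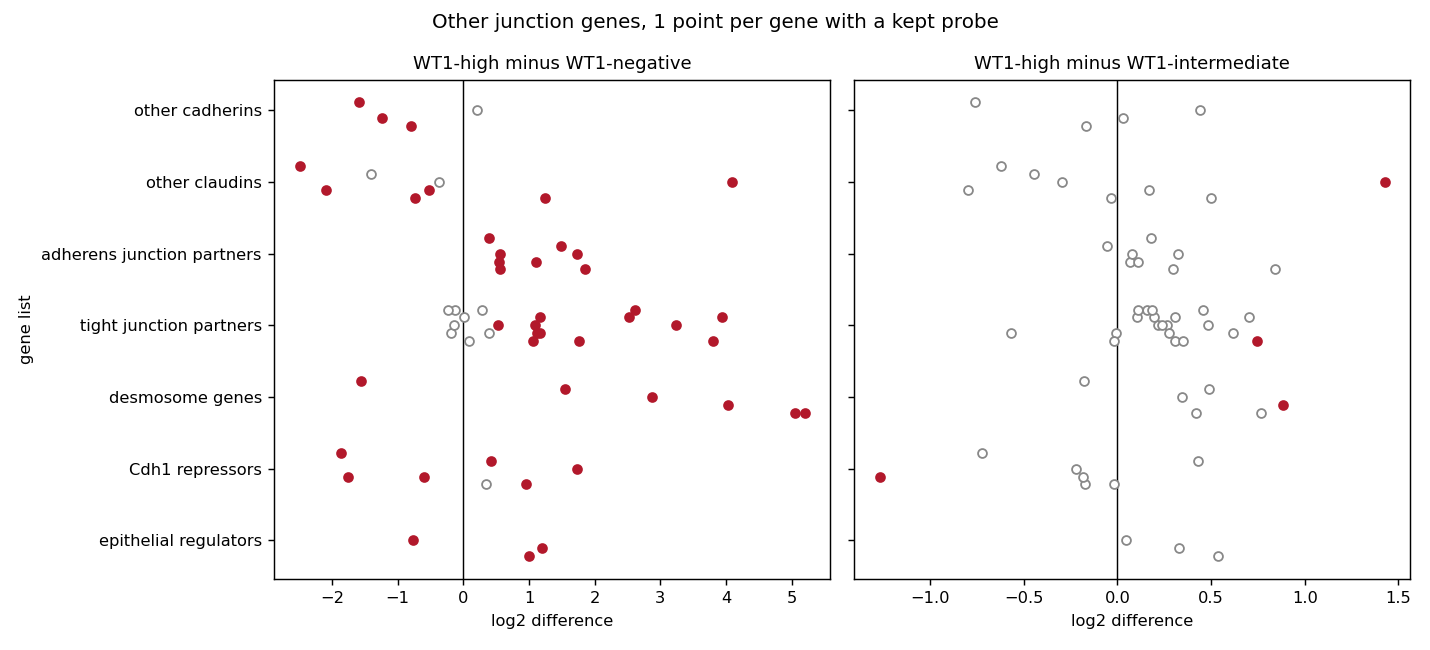
Log2 difference of each gene with a kept probe in 7 further lists (1 point per gene, by the probe with the highest mean; vertical offsets have no meaning), for WT1-high against WT1-negative cells on the left and against WT1-intermediate cells on the right; filled red points were called by limma. On the left the 8 tested adherens junction partners lie above 0 and are called (Jup and Pvrl1 without detection on WT1-negative arrays), and on the right 4 genes of these lists are called.

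Factors that repress Cdh1 showed no common direction. All 7 were tested, and in WT1-high against WT1-negative cells 3 were higher and 3 lower (median 0.34, limma). Over all tested probes 26.5% were higher and 33.1% lower. Zeb2 in WT1-high cells differed by -1.76 from WT1-negative and by -1.27 from WT1-intermediate cells (adjusted p 2.6e-04 and 0.032, limma), and Twist2, detected on no WT1-high array, was at least 2.99-fold higher in WT1-negative cells (6.9e-05). Snai3 was higher by 1.74 and Zeb1 by 0.96 (adjusted p 9.8e-06 and 0.0010, limma). Macrophages are known to express Zeb2, and 8 of 10 macrophage markers were lower in WT1-high cells in each of these comparisons; their part in the Zeb2 value was not tested. Of 8 epithelial regulators on the array 3 were tested, and Grhl1 (1.19) and Elf3 (1.00) were higher and Ovol2 (-0.76) lower in WT1-high than in cultured WT1-negative cells (adjusted p 6.2e-05, 0.0078 and 9.4e-04, limma).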

How the data were processed

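Expression was measured in 9 samples (3 groups of 3) on Illumina MouseWG-6 v2.0 BeadChips. The deposited tables held the authors' unnormalised summary probe profiles from BeadStudio, with 1 linear intensity for each probe. Beside it stood the deposited detection p-value, a rank of the probe among the negative controls of its array. A joined table held the same intensities (largest difference 0) and was used only as a check. The column of WT1-intermediate 30 was numbered 29, and was assigned as the only array of its group left. No build was given in the sources used here, and chromosomes and symbols are those of the deposited annotation. The authors processed the data with limma, by background correction from negative controls, quantile normalisation and log2 transformation.

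The same steps were run here with limma 3.58.1 in R 4.3.3 (neqc, offset 16, 936 negative controls), over all 9 arrays. The filter retained probes detected (p under 0.05) in 3 or more samples. A linear model with 3 group levels was fitted to all arrays and contrasts were tested with limma's moderated statistic, two-sided, with Benjamini-Hochberg adjustment over the 20573 probes kept. The steps were tested on simulated data. For genes with several probes the retained probe of highest mean stood for the gene. From each further list, up to 3 genes per comparison were named by the largest difference among called probes without overlap of the groups; where other genes of a list were named (Tjp3, Dsp, Zeb1 and the markers of single cell types among them), they were chosen after their values were seen. The likeness of probes is Pearson's r over the 9 arrays. Symbols of the lists matched the annotation for 195 genes, older symbols for 2, and 5 genes found no probe; 1 cholangiocyte marker is not reported here and was left out of its list. The members and the lists were chosen with earlier results of these data known, so that no count over them is independent support.

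Pairing was checked by correlating the arrays' deviations from their group means. Arrays of the same animal gave 0.34 to 0.47 (3 pairs) and the other combinations -0.39 to 0.03 (6 pairs). Since the study describes no block for animals, none was used in the values given. Alternatives covered background correction, offset, normalisation, the filter, the arrays in the fit, array weights, replicate blocks and leaving out each array, in which case the normalised values and the probes tested stayed the same. Precision is limited by having 3 arrays in each group.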

Additional observations from a re-analysis of the deposited data

How the results depend on the processing

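For WT1-high against WT1-intermediate cells 3 member probes were called, and 4 without background correction, with an offset of 50, with cyclic loess or under the random replicate block. The count was 7 with median scaling, 5 with the fixed replicate block by animal, 2 with the fixed replicate block by label or no filter, 1 with detection on all 9 arrays, with only the compared groups in the fit or with the in vivo arrays processed alone, and 0 of at least 2-fold. Leaving out 1 array gave 1 to 3. Median scaling moved the median of all tested probes from 0.05 to 0.45, and relative to it Cldn10 ILMN_2515816 was higher by 0.96, while the share of all calls that were higher went from 25.5% to 95.5%; without background correction that share was 37.8%. For WT1-intermediate against WT1-negative cells median scaling moved the median of all tested probes from -0.13 to -0.44 and the share from 42.1% to 23.1%.

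For WT1-high against WT1-negative cells 14 member probes were called, and 4 with detection on all 9 arrays, which kept fewer probes. The same setting gave 4 for WT1-intermediate against WT1-negative cells, against 14 in the fit described above. The member probes it kept were Cdh1 ILMN_2628629, Cldn10 ILMN_2515816, Cldn15 ILMN_2793817 and F11r ILMN_2713305, and all of them were called in both comparisons. The other member probes were not tested under it. The other settings gave 11 to 16 and 11 to 14, and leaving out 1 array gave 12 to 14 and 13 to 14. The random replicate block gave 14 and 13.

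Differences that were not called changed sign near 0. Between WT1-high and WT1-intermediate cells Cdh1 gave -0.031 without WT1-high 1 and -0.085 without WT1-intermediate 8 (range leaving out 1 array -0.085 to 0.25). Cdh2 gave -0.025 with cyclic loess, -0.031 with the fixed replicate block by label, and -0.019 and -0.0057 without WT1-high 8 or WT1-intermediate 30 (range -0.019 to 0.14). Cdh11 ILMN_1240529 gave 0.062 with median scaling, 0.055 for the mean of its probes and 0.033 without WT1-intermediate 8 (range -0.27 to 0.033). Cldn1 in WT1-high against WT1-negative cells gave 0.17 without WT1-negative 11, its only detected array of that group (range -1.04 to 0.17). The cause of the other changes was not tested. A block by chip was not run, since the headers name no chip. Probes near the floor (Cdh2, Cdh11, Cldn1, Cdh3 ILMN_3077284) are limited by signal over background.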
